A study of Mus musculus with 8 samples.

Results

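Genes of the ATG8 family, which code for the LC3 and GABARAP proteins, and *Trp53inp2*, which codes for a protein that binds them, were examined in gastrocnemius (GAS) muscle after knockdown of MYTHO (MYTHO-KD). The set held 6 genes, *Map1lc3a*, *Map1lc3b*, *Gabarap*, *Gabarapl1*, *Gabarapl2* and *Trp53inp2*, each matched by its symbol to 1 probe set of the 22206 on the array. Where a gene has several probe sets, the one to keep was to be chosen by its mean log2 signal over all 8 arrays, but no member had more than 1. The set was put together with earlier results of these arrays known, so its values describe these genes and are no independent support for a pattern among them.

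Both groups were male C57/Bl6j mice of 14 weeks. An adeno-associated virus (AAV) with a hairpin RNA against the *Mytho* transcript, driven by a U6 promoter (AAV sh-RNA MYTHO), went into GAS of one leg, and a virus with a scrambled hairpin under the same promoter (AAV sh-RNA scrmb) went into the opposite leg. Each group had 4 muscles taken 3 weeks later, and their total RNA was hybridised to Clariom S Mouse arrays. The U6 promoter is not specific to muscle fibres, and the RNA came from whole pieces of muscle. An animal number in the column names occurs once per group, which ties the legs of each mouse together, and the mice are named A to D.

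ATG8 proteins are small ubiquitin-like proteins that are attached to a lipid on the growing autophagosome, where they hold cargo receptors and help the vesicle to close and to meet the lysosome. In mammals they form an LC3 branch and a GABARAP branch. ATG4 proteases trim the ATG8 precursors, and ATG7, ATG3 and the ATG12, ATG5 and ATG16L1 complex carry out the attachment. TRP53INP2, also known as DOR, leaves the nucleus when autophagy is induced, binds LC3 and GABARAP proteins, and is also a coactivator of the thyroid hormone receptor. In muscle, FoxO transcription factors are known to raise several of these genes during wasting.

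*Map1lc3a* and *Trp53inp2* lie close to each other on chromosome 2, at 155276364 to 155278073 and at 155381811 to 155389847 in GRCm38.p6. Of the other members, *Map1lc3b* and *Gabarapl2* are on chromosome 8, *Gabarap* on chromosome 11 and *Gabarapl1* on chromosome 6. RefSeq promoter windows on GRCm38.p6 were matched for 5 of the 6 genes, all but *Map1lc3a*, and the 250 bases before the transcript start were searched on both strands. The FoxO motif GTAAACA and the E-box CACGTG occurred in none of the 5 windows. Of all 32851 windows of this length, 3.17% held the first and 6.02% the second.

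The windows of *Trp53inp2*, the member with the wider difference among those matched, and of *Gabarapl1*, a FoxO-linked member, are shown for comparison, both on the plus strand. The window of *Trp53inp2* ends before a transcript start at 155381856, which lies inside the RefSeq span of the gene, so only its bases ahead of that span are printed, chr2:155381606-155381810. The window of *Gabarapl1* is chr6:129532942-129533191. Capitals mark motifs chosen after the windows were read. In *Trp53inp2* these are CCAAT on the minus strand (read as ATTGG), starting 249 and 90 bases before that transcript start, and in *Gabarapl1* ATAAACA, a forkhead variant, starting 95 bases before the start. A further motif chosen in this way, TGACGTCA, the cAMP response element, was in the unprinted end of the *Trp53inp2* window at 155381815 to 155381822, inside the RefSeq span of the gene. The CCAAT motif was present in 33.9% of all windows, the forkhead variant in 4.16% and the cAMP response element in 1.55%. The window of *Trp53inp2* was 64.8% G and C and that of *Gabarapl1* 46.8%.
Trp53inp2: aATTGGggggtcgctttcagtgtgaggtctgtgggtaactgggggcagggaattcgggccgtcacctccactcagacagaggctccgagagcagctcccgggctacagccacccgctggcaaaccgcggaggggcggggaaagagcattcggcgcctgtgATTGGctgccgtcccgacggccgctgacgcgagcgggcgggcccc
Gabarapl1: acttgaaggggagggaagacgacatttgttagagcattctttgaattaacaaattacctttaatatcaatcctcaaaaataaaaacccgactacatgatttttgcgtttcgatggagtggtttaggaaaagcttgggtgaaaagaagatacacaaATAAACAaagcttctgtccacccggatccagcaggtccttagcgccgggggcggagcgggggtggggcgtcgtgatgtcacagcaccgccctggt

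Labels and tissue were checked first. The targeted gene, listed as D230025D16Rik, had a log2 signal of 11.12 ± 0.26 (SD, n = 4) in scrmb and of 8.31 ± 0.33 (SD, n = 4) in MYTHO-KD muscle. It was lower in MYTHO-KD in all 4 animals (limma adjusted p 0.00044). Of the 8 skeletal muscle markers, *Acta1* and *Pygm* were saturated, and the mean log2 signal of the other 6 ran from 18.10 to 18.40 over the arrays. Array medians lay between 6.39 and 6.47.

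Among the 6 members, *Map1lc3a* and *Trp53inp2* were higher in MYTHO-KD muscle with no overlap between the groups, by 2.20-fold and 2.13-fold. *Map1lc3b*, *Gabarap*, *Gabarapl1* and *Gabarapl2* overlapped between the groups, and their log2 fold changes ran from -0.05 to 0.32. No member passed a limma adjusted p of 0.05 over all probe sets, which 0.00901% of probe sets passed as higher and 0.018% as lower. At an unadjusted p under 0.05, limma counted 2 of the 6 members higher and none lower, against 4.81% and 7.58% of all probe sets. Both were also at least 2-fold higher, as were 0.261% of all probe sets at that p. Groups without overlap were found for 2.59% of all probe sets in the higher and 3.87% in the lower direction. The median log2 fold change was 0.25 over the 6 members and -0.01 over all probe sets.

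**Figure D1:**
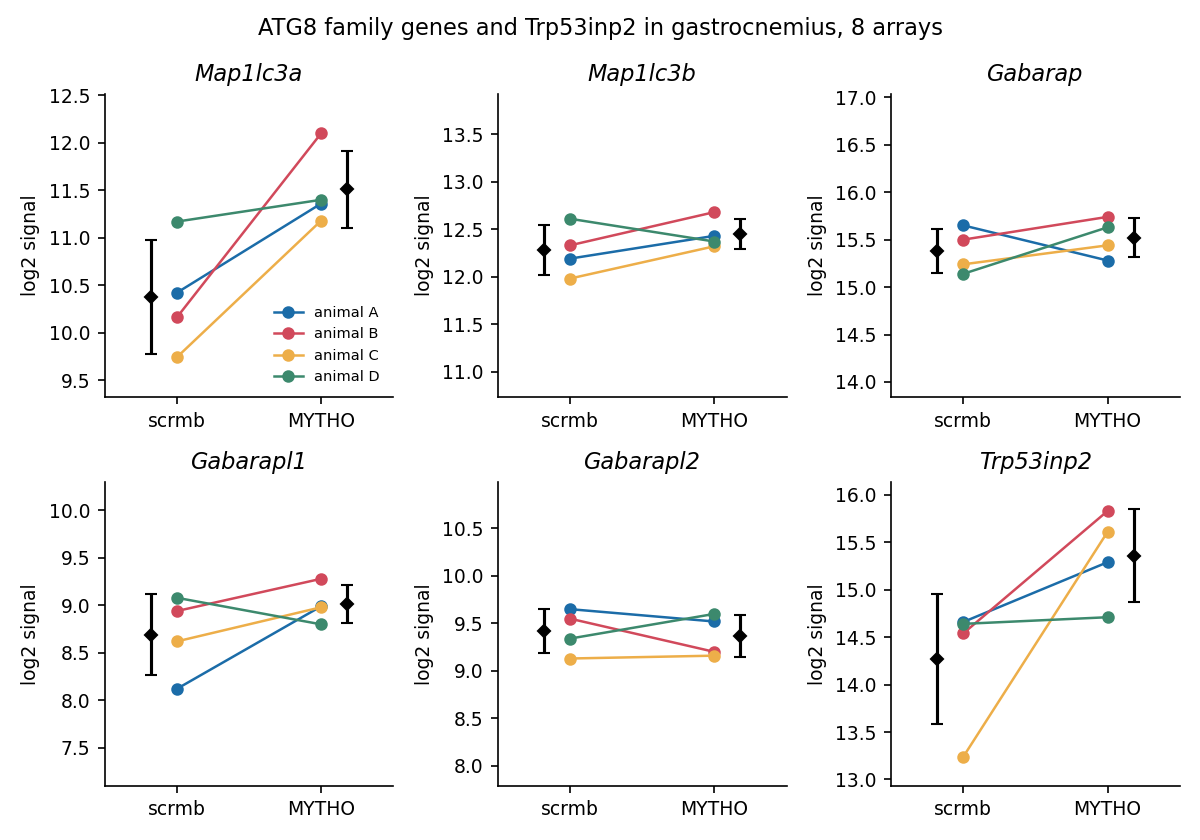
Log2 signal (y axis) of each of the 6 genes in scrmb and MYTHO muscle (x axis), with 1 line per animal joining its legs and diamonds for the group mean with SD (n = 4). All panels span the same range of log2 units; *Map1lc3a* and *Trp53inp2* are higher in the MYTHO leg of all 4 animals, and the other panels overlap.

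In the LC3 branch, *Map1lc3a* codes for LC3A. From A to D, the scrmb muscles had log2 signals of 10.42, 10.16, 9.74 and 11.17, and the MYTHO-KD muscles of 11.36, 12.10, 11.18 and 11.40. The highest scrmb value, in animal D, lay just under the lowest MYTHO-KD value, in animal C. The log2 fold change was 1.14 with a 95% confidence interval from 0.48 to 1.79 (limma adjusted p 0.164), and 99.8% of all probe sets had a lower one. It was higher in 4 of 4 animals, by 0.94, 1.94, 1.44 and 0.23 on the log2 scale. Without scrmb D the log2 fold change was 1.40 and passed, at a limma adjusted p of 0.0443. In that fit the probe sets past the adjusted threshold rose in number from 6 to 154, of which 14, or 0.063% of all, were higher. That array scored 3.31 on the first principal component, above -25.8, -30.8 and -45.4 of the other scrmb arrays and below the MYTHO-KD arrays at 11.7 to 40.4.

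*Map1lc3b* codes for LC3B, the form most often measured as a marker of autophagosomes. Its log2 signal was 12.19, 12.33, 11.98 and 12.61 in scrmb and 12.43, 12.68, 12.32 and 12.37 in MYTHO-KD muscle, from A to D. The groups overlapped, and animal D alone had the lower value in its MYTHO-KD leg. The log2 fold change was 0.17 with a 95% confidence interval from -0.24 to 0.58 (limma adjusted p 0.766). This interval leaves room for a change of either sign. Its upper end is below the log2 fold change of *Map1lc3a* but inside the interval of that gene, 0.48 to 1.79. The difference between the changes of the 2 LC3 genes was not tested.

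In the GABARAP branch, *Gabarap* had a log2 signal of 15.65, 15.50, 15.24 and 15.14 in scrmb and of 15.28, 15.74, 15.44 and 15.63 in MYTHO-KD muscle. It was higher in the MYTHO-KD leg in 3 of 4 animals, all but A, and the groups overlapped. The log2 fold change was 0.14 with an interval from -0.27 to 0.55 (limma adjusted p 0.815).

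*Gabarapl1* codes for a GABARAP paralogue that FoxO factors are known to induce in wasting muscle. Its log2 signal was 8.12, 8.94, 8.62 and 9.08 in scrmb and 8.99, 9.28, 8.98 and 8.80 in MYTHO-KD muscle. Scrmb A was the lowest of the 8 arrays, and in animal D the MYTHO-KD leg was the lower one. The log2 fold change was 0.32 with an interval from -0.17 to 0.82 (limma adjusted p 0.610), and without scrmb A it was 0.13 (limma adjusted p 0.859).

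*Gabarapl2*, which codes for the member also called GATE-16, had a log2 signal of 9.65, 9.55, 9.13 and 9.34 in scrmb and of 9.52, 9.20, 9.16 and 9.60 in MYTHO-KD muscle. It was higher in the MYTHO-KD leg of C and D and lower in that of A and B. The log2 fold change was -0.05 with an interval from -0.46 to 0.37 (limma adjusted p 0.951).

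*Trp53inp2* had a log2 signal of 14.66, 14.54, 13.24 and 14.64 in scrmb and of 15.29, 15.83, 15.61 and 14.71 in MYTHO-KD muscle. Scrmb C was far below the other scrmb arrays, and MYTHO-KD D was only just above the highest scrmb value. The log2 fold change was 1.09 with an interval from 0.36 to 1.82 (limma adjusted p 0.223), and 99.8% of all probe sets had a lower one. The difference was 0.63, 1.29, 2.37 and 0.07 on the log2 scale in animals A to D. Without both arrays of animal C it was 0.66 (limma adjusted p 0.586). By exact permutation of the group labels (two-sided), p was 0.0286 for *Map1lc3a* and for *Trp53inp2*, the smallest value that the 70 relabellings of 4 against 4 arrays allow, and from 0.229 to 0.743 for the other members, with no adjustment for the number of genes. These relabellings ignore that the arrays are legs of the same animals. With legs swapped only within animals, the exact permutation p was 0.125 for both genes, the smallest that 16 relabellings allow, so that form of the test cannot reach 0.05.

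**Figure D2:**
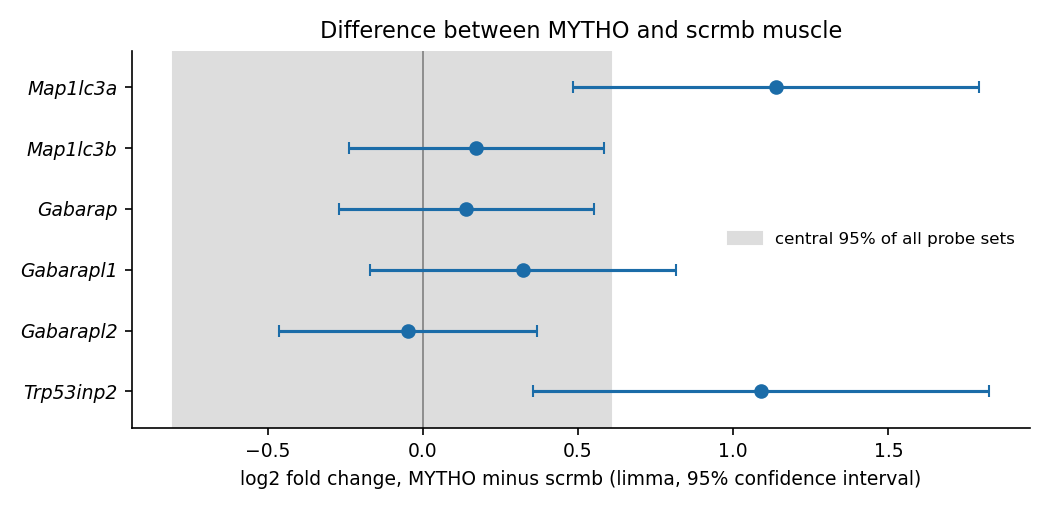
Log2 fold change of MYTHO minus scrmb (x axis) for each of the 6 genes, with points for the limma estimate and bars for its 95% confidence interval. The shaded band spans -0.81 to 0.61, the central 95% of log2 fold changes of all 22206 probe sets; *Map1lc3a* at 1.14 and *Trp53inp2* at 1.09 lie beyond it.

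The members also differed in how much they varied between arrays of 1 group. The pooled SD within groups was 0.51 for *Map1lc3a* and 0.60 for *Trp53inp2* on the log2 scale, larger than that of 90.2% and 95.7% of all probe sets. It was 0.22 for *Map1lc3b* and for *Gabarap*, 0.23 for *Gabarapl2* and 0.33 for *Gabarapl1*, against a median of 0.32 over all probe sets. Over the 8 arrays, Pearson's r was 0.85 between *Map1lc3a* and *Trp53inp2*, 0.85 between *Map1lc3a* and *Map1lc3b*, and -0.07 between *Map1lc3a* and *Gabarapl2*. These r values are descriptions, as the 8 arrays come from 4 animals and the group difference enters them.

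The differences of *Map1lc3a* and *Trp53inp2* were smallest in animal D, and so was that of the slow-fibre markers. All 8 slow-fibre genes, among them *Myh7* and *Tnni1*, had a higher mean in MYTHO-KD muscle, 7 with an unadjusted limma p under 0.05, beside 4.81% of all probe sets, and none after adjustment. The mean log2 signal of this list ran from 11.61 to 13.70 in scrmb and from 11.68 to 14.88 in MYTHO-KD muscle. Its difference between legs was 1.18, 2.52, 2.87 and 0.08 in animals A to D. Fewer cells of a type and less RNA per cell cannot be told apart in such samples, and the part of fibre type in the values of *Map1lc3a* and *Trp53inp2* was not tested.

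Endothelial markers were measured for 5 genes. All 5, *Pecam1*, *Cdh5*, *Kdr*, *Tek* and *Vwf*, had a higher mean in MYTHO-KD muscle, of which *Pecam1* and *Tek* had an unadjusted limma p under 0.05, beside 4.81% of all probe sets, and none passed after adjustment. The list mean ran from 9.67 to 10.12 in scrmb and from 10.33 to 10.50 in MYTHO-KD muscle. Scrmb C, which was lowest for *Trp53inp2* and for *Map1lc3a*, also had the lowest endothelial mean and, at 9.82, the lowest blood mean of the 8 arrays. Its mean of the 5 Schwann cell markers was the highest, at 9.45 against 7.32 to 8.28 in the other scrmb and 7.46 to 8.09 in the MYTHO-KD muscles. The part of these cells in the results was not tested.

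Of the remaining marker lists, none had a list mean without overlap between the groups, and an unadjusted limma p under 0.05 was found for 1 of 7 macrophage, 1 of 5 fibroblast and 1 of 7 satellite cell and regeneration genes and for no adipocyte or blood gene. Over both directions this is near the share of all probe sets, 4.81% higher and 7.58% lower. *Dcn*, a matrix proteoglycan gene of fibroblasts, had a log2 fold change of -0.59 without overlap (limma adjusted p 0.236). It was lower in all 4 animals, but with a difference of only -0.01 in animal D. *Ptprc*, which codes for the leukocyte antigen CD45, was at -0.59 and lower in all 4 animals (limma adjusted p 0.343), but 4 of the 7 macrophage genes lay above 0. Among these *Cd68*, a lysosomal protein gene of macrophages, was at 0.54 (limma adjusted p 0.486), with an unadjusted limma p of 0.0882, or 0.0332 with animal as a block. *Myog*, which codes for the differentiation factor myogenin, was at 0.65 and higher in all 4 (limma adjusted p 0.307), with overlap, as for *Ptprc*. *Myh3*, of the same list as *Myog*, was at 0.71 (limma adjusted p 0.457). Its unadjusted limma p was 0.0736, or 0.0433 with animal as a block. These genes were named after their values were seen, and their part in the results was not tested. Adipocyte means ran from 6.80 to 10.12 in scrmb and from 7.26 to 11.57 in MYTHO-KD muscle, with differences of both signs among animals. Macrophage means ran from 7.38 to 7.80 and from 7.35 to 7.75, fibroblast means from 10.76 to 11.02 and from 10.27 to 11.27, blood means from 9.82 to 11.23 and from 10.18 to 12.01, and satellite cell and regeneration means from 5.69 to 6.16 and from 5.91 to 6.70. *Myh8*, of the satellite cell and regeneration list, was saturated on all 8 arrays, so a change in it could not be seen. The mean of that list covers the other 6 genes.

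**Figure D3:**
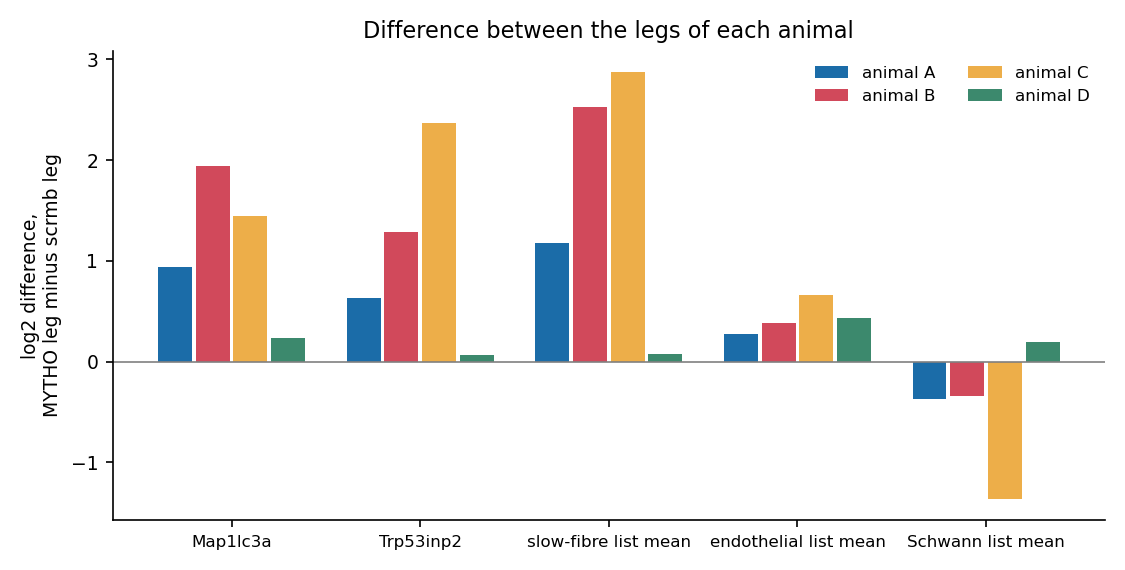
Difference between the MYTHO and the scrmb leg of each animal in log2 units (y axis) for *Map1lc3a*, *Trp53inp2* and the means of the slow-fibre, endothelial and Schwann cell markers (x axis), 1 bar per animal. Animal D has the smallest bar for *Map1lc3a* (0.23), *Trp53inp2* (0.07) and the slow-fibre mean (0.08), but not for the endothelial mean (0.43).

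As *Map1lc3a* and *Trp53inp2* lie 104 kb apart, the genes around them were examined. In a window of 250 kb on either side of each start, 11 of the 24 RefSeq genes were measured, 9 of them other than the members. *Pigu*, a subunit of the enzyme that attaches GPI anchors, lies between the 2 members and had a log2 fold change of -0.04 with an interval from -0.55 to 0.47. *Ncoa6*, a nuclear receptor coactivator next to *Trp53inp2*, had a log2 fold change of 0.28 without overlap between groups (limma adjusted p 0.592), and *Dynlrb1*, a dynein light chain gene before *Map1lc3a*, one of 0.17.

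Over the 9 other genes, the log2 fold change ran from -0.18 to 0.39 with a median of 0.17, and none passed after adjustment. *Myh7b*, a myosin heavy chain gene of slow muscle and heart, was the only one with an unadjusted limma p under 0.05, at a log2 fold change of 0.39 (limma adjusted p 0.397), its groups overlapped, and with animal as a block its unadjusted limma p was 0.0752. That 1 of 9 is a larger share than the 4.81% of all probe sets in the higher direction. It is no larger than that of all probe sets over both directions, 4.81% higher and 7.58% lower. The probe set of *Ahcy* also names a second gene and cannot separate the pair.

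**Figure D4:**
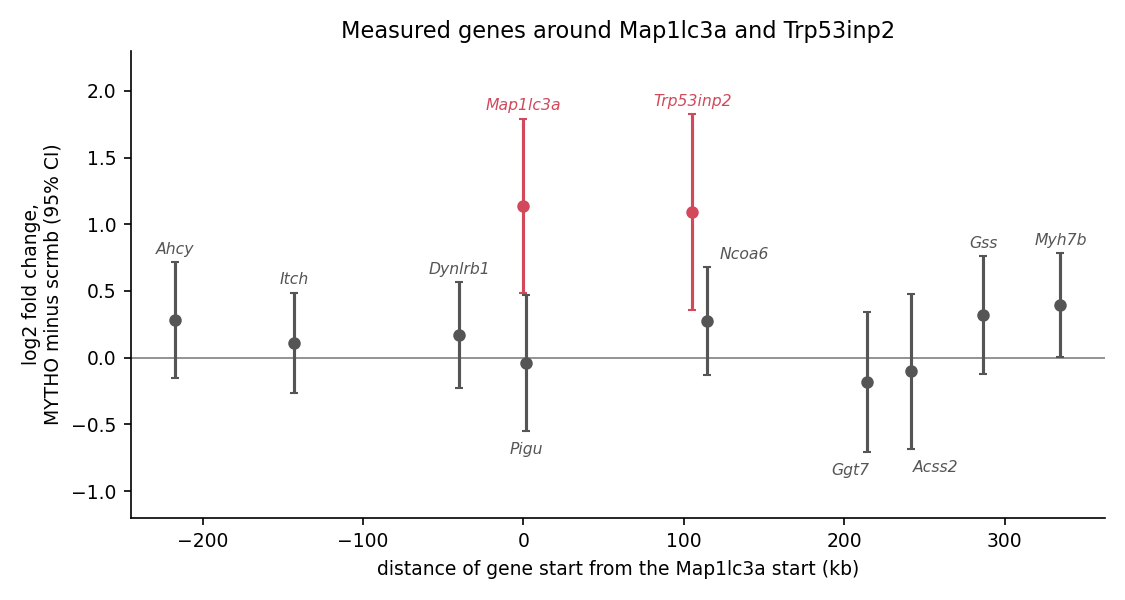
Log2 fold change of MYTHO minus scrmb with its 95% confidence interval (y axis) for the 11 measured genes by the distance of their start from that of *Map1lc3a* in kb (x axis). The 2 members, in red, stand at 1.14 and 1.09, and the 9 other genes between -0.18 and 0.39.

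The enzymes that process and attach ATG8 proteins were measured for 11 of 11 genes. None passed after adjustment, and at an unadjusted p limma counted 2 higher and 1 lower, beside 4.81% and 7.58% of all probe sets. *Atg4a*, a protease of the family that trims ATG8 precursors, was lower without overlap, at a log2 fold change of -0.62 (limma adjusted p 0.241). Its differences between legs were -0.48, -1.26, -0.58 and -0.15 in animals A to D. A further probe set, shared by *Atg4a* and its pseudogene, had a log2 fold change of -0.31 with overlap between groups (limma adjusted p 0.485). *Atg4c*, of the same family, was higher without overlap, at a log2 fold change of 0.55 (limma adjusted p 0.267). It was higher in 4 of 4 animals, by 0.55, 0.57, 0.08 and 0.98 from A to D. *Atg12*, the ubiquitin-like partner of ATG5, was also higher without overlap, at a log2 fold change of 0.37 (limma adjusted p 0.389). With animal as a block the unadjusted limma p of *Atg12* was 0.0682, and that of *Atg7* went from 0.0800 to 0.0451. The median of the list was 0.09, with 7 genes above 0 and 4 below.

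Of the 14 cargo receptors that bind ATG8 proteins, all were measured, none passed after adjustment, and 2 had an unadjusted limma p under 0.05, both higher. The 2 higher genes make 14.3% of the list, beside 4.81% of all probe sets in that direction. Over both directions these 2 of 14 are close to the share of all probe sets at that p, 4.81% higher and 7.58% lower. These were *Calcoco1* at a log2 fold change of 0.57 (limma adjusted p 0.335) and *Tex264*, a receptor for the endoplasmic reticulum, at 0.45 (limma adjusted p 0.372), and each was higher in 3 of 4 animals. *Retreg1*, another receptor for the endoplasmic reticulum, listed as Fam134b, had a log2 fold change of -0.35 without overlap (limma adjusted p 0.431). Equal numbers of the list, 7 and 7, lay above and below 0, and the median was 0.03.

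Among 12 genes for initiation, transport and fusion factors that bind ATG8 proteins, none passed after adjustment and 1, higher, had an unadjusted limma p under 0.05. This is 8.33% of the list, beside 4.81% of all probe sets in that direction. Over both directions it is no larger a share than that of all probe sets, 4.81% higher and 7.58% lower. The gene was *Mapk8ip1*, a scaffold that links cargo to kinesin and dynein, at a log2 fold change of 0.48 (limma adjusted p 0.311). *Tecpr2* at -0.36 (limma adjusted p 0.442) and *Fyco1*, an adaptor between LC3 and kinesin, at 0.33 (limma adjusted p 0.507) followed. The median was 0.07.

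*Trp53inp1*, the paralogue of *Trp53inp2*, had a log2 signal of 8.49, 8.31, 7.70 and 8.14 in scrmb and of 8.69, 8.39, 8.52 and 8.33 in MYTHO-KD muscle, from A to D. It was higher in 4 of 4 animals, but the groups overlapped. Its log2 fold change was 0.32 with an interval from -0.12 to 0.76 (limma adjusted p 0.558). The partners *Vmp1* and *Thrb*, a thyroid hormone receptor, were at -0.20 and -0.22 (limma adjusted p 0.704 and 0.714), and none of the 5 genes of this list had an unadjusted p under 0.05. The *Vmp1* probe set also names a microRNA.

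LC3 takes its name from the microtubule-associated proteins it was found with. Of their 3 heavy chain genes, *Map1a* had a log2 fold change of 0.77 (limma adjusted p 0.265), *Map1b* of 0.44 (limma adjusted p 0.499) and *Map1s* of -0.08 (limma adjusted p 0.900). *Map1a* was higher in 3 of 4 animals, with overlap between the groups. It alone of the 3 had an unadjusted limma p under 0.05, beside 4.81% of all probe sets in the higher direction. That p was 0.0126, or 0.02625 with animal as a block.

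The last list held 3 FoxO factors and 8 autophagy genes linked to FoxO3, of which *Map1lc3b* and *Gabarapl1* are members here. All 11 were measured, 10 lay above 0 and the median log2 fold change was 0.32. None passed after adjustment, and 2, both higher, had an unadjusted limma p under 0.05, beside 4.81% of all probe sets. These were *Becn1*, a subunit of the lipid kinase complex that starts the phagophore, at 0.47 without overlap (limma adjusted p 0.354), and *Atg12*, given above. With animal as a block only *Becn1* kept an unadjusted p under 0.05. *Ulk2*, an initiating kinase, was at 0.32 (limma adjusted p 0.521).

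**Figure D5:**
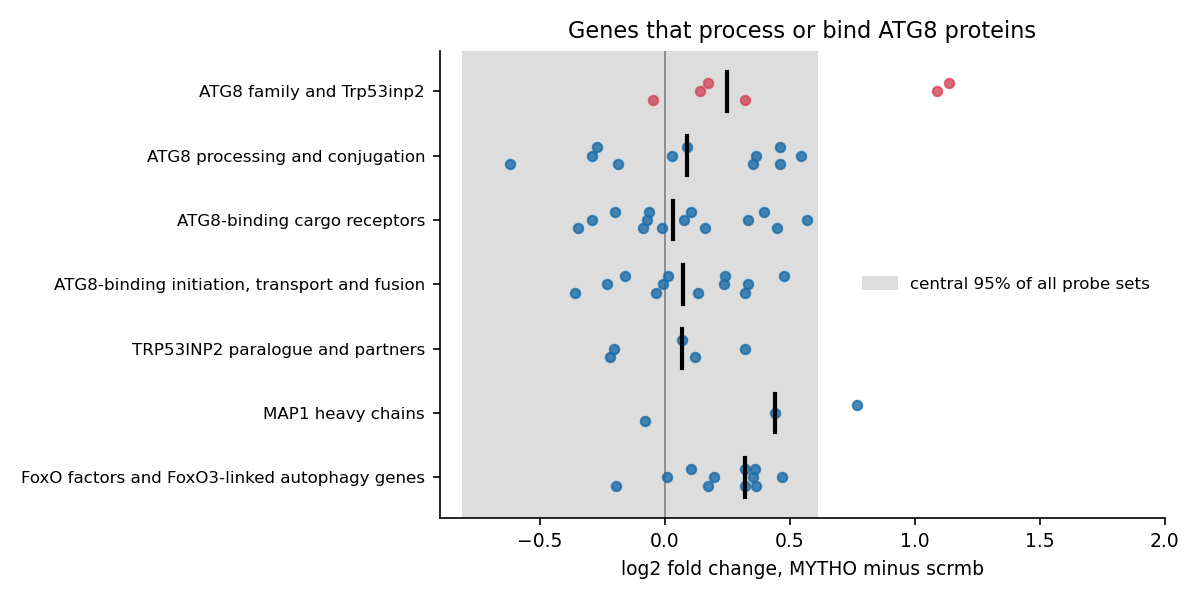
Log2 fold change of MYTHO minus scrmb (x axis) for the 6 members, in red, and for the genes of 6 lists, in blue, with 1 point per gene and a black bar at the median of each. The band spans the central 95% of all probe sets, -0.81 to 0.61; the medians run from 0.03 for cargo receptors to 0.44 for the 3 MAP1 heavy chain genes, against 0.25 for the members.

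Among 21348 other probe sets that name 1 gene and were not saturated, those most like *Map1lc3a* over the 8 arrays were *Ndufa2*, a subunit of respiratory complex I, with a Pearson's r of 0.991, and *Ppdpf*, with 0.990. Their log2 fold changes were smaller, at 0.51 and 0.52. Most like *Trp53inp2* were *Synpo2*, a Z-disc protein gene, with r of 0.988 and a log2 fold change of 0.33, and *Tpp1*, which codes for a lysosomal peptidase, with r of 0.979 and a log2 fold change of 0.35. For the other members the highest r values were 0.981 with Gm3934 and 0.975 with *Vrk3* for *Map1lc3b*, 0.960 with *Adar* and 0.955 with Gm6812 for *Gabarap*, 0.989 with *Lin7b* and 0.980 with *Dock5* for *Gabarapl1*, and 0.974 with *Slc25a14* and 0.961 with *Vmn2r100* for *Gabarapl2*. The r values are the highest of so many over 8 arrays from 4 animals and are given as a description.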

How the data were processed

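The deposited values are log2 signals, made by the authors with the Transcriptome Analysis Console 4.0.1 at its default settings. Per the file headers, these are gene-level SST-RMA values, annotated with release 36 on mm10. RMA includes quantile normalization, so a change shared by most genes would not be seen. Signals were rounded to 2 decimals and reached a ceiling of 19.93, at which 18 probe sets were saturated on all 8 arrays. Signals of different probe sets are not on a common scale of transcript number, so genes were compared by their differences. The authors' group averages, fold changes, p-values and false discovery rates were not used.

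MYTHO-KD and scrmb were set against each other in limma 3.58.1 under R 4.3.3 (lmFit and eBayes, default settings, no block, no filter), two-sided, with Benjamini-Hochberg adjustment over all 22206 probe sets. The fit was tried on simulated signals with independent noise and planted changes larger than those of *Map1lc3a* and *Trp53inp2*. These signals had no pairs of legs, so the trial does not cover changes of that size or paired arrays. The number of arrays, 4 per group, limits the precision. Named from each pathway list were the 3 genes with the lowest unadjusted p, and *Trp53inp1*. *Atg7* and the genes named from marker lists were outside this rule. Members, lists and markers were chosen with earlier results of these data known. The 6 pathway lists and 9 marker lists are described by counts, with no set test. Symbols and synonyms were matched to the RefSeq table for GRCm38.p6. The genes around *Map1lc3a* were placed by their RefSeq starts, as the file gives no coordinates.

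As the scrambled virus went into the opposite leg, arrays with the same animal number are pairs. Deviations from the group means correlated within pairs at -0.001 to 0.13. Columns carry no replicate number from the labels, so they were mapped to groups only. Alternatives were quantile normalization, median centring, the upper 50% of probe sets, eBayes with trend and robust, array weights, leaving out saturated probe sets, animal as a block, and leaving out each array or, chosen after the data were seen, both arrays of animal C or D, and exact permutation within animals.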

Additional observations from a re-analysis of the deposited data

Results flagged for a closer look

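In 14 groups of 4 arrays, covering the 6 genes and the targeted gene, 2 had 1 array apart from the rest by a gap that took more of the group's range than the 95% limit of Dixon's test. About 1 in 20 such groups would pass that limit by chance. *Trp53inp2* in scrmb C lay at 13.24 against 14.54 to 14.66 in the other scrmb arrays, a gap of 0.915 of the range. D230025D16Rik in MYTHO-KD C lay at 8.80 against 8.08 to 8.20, a gap of 0.833 of the range.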

How the results depend on the processing

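*Map1lc3a* and *Trp53inp2* kept a positive log2 fold change and an unadjusted limma p under 0.05 under all 17 alternatives, and D230025D16Rik kept its sign and its call, from -3.09 to -2.74. Leaving out 1 array at a time gave *Map1lc3a* log2 fold changes of 0.93 to 1.40, past the adjusted threshold only without scrmb D (limma adjusted p 0.0443; over all alternatives 0.0443 to 0.506). It gave values from 0.75 to 1.31 for *Trp53inp2* (limma adjusted p over all alternatives 0.126 to 0.586) and from -0.14 to 0.03 for *Gabarapl2*, whose sign turned without scrmb A, MYTHO-KD B or MYTHO-KD C. The range was 0.07 (without scrmb C) to 0.28 (without scrmb D) for *Map1lc3b*, 0.06 (without scrmb D) to 0.23 (without scrmb A) for *Gabarap* and 0.13 (without scrmb A) to 0.45 (without scrmb D) for *Gabarapl1*. The number of members past the adjustment ran from 0 to 1, the 1 being *Map1lc3a* without scrmb D. Over all probe sets the number past it was 6, against 154 without scrmb D, 1 without any other single array, 160 with eBayes trend and robust, 60 without saturated probe sets, 44 with median centring, 5 with quantile normalization, 2 with the replicate block, 1 without animal C and 4 without animal D. With the replicate block by animal the log2 fold changes were the same, the limma adjusted p was 0.190 for *Map1lc3a* and 0.246 for *Trp53inp2*, no member's call changed, and the FoxO list had 1 gene at an unadjusted p under 0.05 in place of 2. With legs swapped only within animals (added with the data already seen), the exact permutation p went from 0.0286 to 0.125, the smallest possible, for *Map1lc3a* (1.14), *Trp53inp2* (1.09) and D230025D16Rik (-2.81), since such pairs allow fewer relabellings. The cause of the other changes was not tested. Averaging several probe sets per gene did not apply, as each member had 1.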
